A study of Mus musculus with 6 samples.

Results

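The genes described here encode 10 core and accessory subunits of the Polycomb repressive complexes, chosen by name from the 57132 genes of the deposited table: Ezh1, Ezh2, Eed, Suz12, Jarid2 and Mtf2 of Polycomb repressive complex 2 (PRC2), and Rnf2, Ring1, Bmi1 and Cbx2 of Polycomb repressive complex 1 (PRC1). All 10 were among the 14126 genes with a mean of at least 10 normalized counts, which were tested. RNA sequencing was performed on tdTomato-positive cells sorted from E14.5 mouse cortex, with 3 control and 3 Dnmt1 knockout (KO) libraries. Control embryos (Sst-Cre/tdTomato) carried Cre recombinase at the somatostatin (Sst) locus and a Cre-dependent tdTomato reporter at the Rosa26 locus, and KO embryos (Sst-Cre/tdTomato/Dnmt1 loxP2) carried both of these alleles together with the floxed Dnmt1 alleles, all on a C57BL/6J background. Cre is driven by Sst, so that recombination was restricted to cells with Sst promoter activity and their descendants. Cells were pooled from several embryos of a genotype, and nothing in the labels ties a library to a separate litter, so that p-values measure the spread between these libraries only.

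PRC2 places methyl groups on lysine 27 of histone H3. Its catalytic subunit is EZH2, the form typical of dividing cells, or its paralog EZH1, which is the more common form in many differentiated cells, and both need EED and SUZ12 to act. JARID2 and MTF2 are accessory subunits that help PRC2 to engage chromatin. PRC1 attaches ubiquitin to histone H2A through RING1 or RNF2 (also called RING1B), each paired with a PCGF protein such as BMI1, and CBX2 is a chromobox subunit that binds methylated histone H3. In the developing forebrain these complexes are known for keeping genes of other lineages silent and for setting the timing of neurogenesis.

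In the KO cells the catalytic PRC2 genes moved in opposite directions. Ezh1 was 1.29-fold higher, Ezh2 fell to 0.810-fold of the control level, and Rnf2, the more abundant of the PRC1 ubiquitin ligase genes, fell to 0.825-fold. The other 7 members did not pass the test, which 19.2% of all tested genes passed. Ezh2 kept its call when any 1 library was left out, whereas the Ezh1 call was lost without any 1 of the 6 libraries and the Rnf2 call without 4 of them. The falls of Ezh2 and Rnf2 also rest on the scaling between libraries, since with total reads as the scale their log2 fold changes were -0.04 and -0.02 and neither was called. Both calls were kept under quantile normalization and with size factors or reads of protein-coding genes as the scale. The 2 protein-coding scalings were chosen after seeing the data, and the Ezh1 call was lost with each of them. The Rnf2 call was also lost when replicate number was fitted as a block.

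The promoters of the 3 members that passed the test are shown to place these genes in the genome and to let their composition be compared. Each runs from 250 bases before to 50 bases after the RefSeq start site (sequences from the RefSeq table of GRCm38.p6, each found exactly 1 time in GRCm39, to which the coordinates refer), and is written 5′ to 3′ on the gene's own strand. Capitals mark matches, on either strand, to an E2F motif (TTTGGCGC, TTTGCCGC, TTTCGCGC or TTTCCCGC) or to the CCAAT box (CCAAT, or ATTGG where it lies on the other strand).
Ezh1 promoter, chr11:101117240-101117539, minus strand: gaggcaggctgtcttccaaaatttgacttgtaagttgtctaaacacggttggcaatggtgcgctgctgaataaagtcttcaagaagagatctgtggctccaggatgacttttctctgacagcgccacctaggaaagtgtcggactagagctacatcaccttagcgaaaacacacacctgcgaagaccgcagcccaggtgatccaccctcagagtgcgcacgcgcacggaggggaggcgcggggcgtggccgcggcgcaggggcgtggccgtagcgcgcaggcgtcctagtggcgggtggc
Ezh2 promoter, chr6:47571915-47572214, minus strand: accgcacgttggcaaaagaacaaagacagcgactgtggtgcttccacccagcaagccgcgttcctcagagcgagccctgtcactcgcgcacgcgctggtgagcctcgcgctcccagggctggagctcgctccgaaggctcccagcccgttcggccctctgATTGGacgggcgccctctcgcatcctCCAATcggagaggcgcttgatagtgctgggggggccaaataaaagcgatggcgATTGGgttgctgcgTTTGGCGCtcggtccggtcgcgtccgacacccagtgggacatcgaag
Rnf2 promoter, chr1:151376693-151376992, minus strand: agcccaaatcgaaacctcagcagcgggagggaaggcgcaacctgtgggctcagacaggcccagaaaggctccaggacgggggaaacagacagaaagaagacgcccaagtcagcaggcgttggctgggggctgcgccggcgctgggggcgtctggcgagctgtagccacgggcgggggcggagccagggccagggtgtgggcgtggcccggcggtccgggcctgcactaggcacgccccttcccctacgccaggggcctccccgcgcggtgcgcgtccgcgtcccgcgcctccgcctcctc
The Ezh2 window held 1 E2F match, which began at position 4 counted from the start site, and 3 CCAAT matches, while the Ezh1 and Rnf2 windows held neither. Of 32851 mouse promoters of this length, 2.26% held the E2F motif and 37.4% held CCAAT. The windows of Ezh1, Ezh2 and Rnf2 had 23, 31 and 30 CpG dinucleotides, against a median of 7 over all promoters. Members that were not called had 41 (Suz12), 37 (Ring1), 24 and 23 (the Jarid2 entries), 23 (Bmi1), 17 (Eed) and 30 and 2 (the Mtf2 entries). Among the other members, the Suz12 window held 1 E2F match, which began 219 bases before the start site, and 1 CCAAT match. No entry was matched for Cbx2, and those of Eed, Bmi1, Mtf2, Jarid2 and Ring1 held no E2F match. CCAAT matches also lay in the entries of Eed (1) and Jarid2 (1 in each) and in an Mtf2 entry (3). These matches describe letters in the windows and were not used in any test.

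Over the whole table, limma on log2(normalized count + 1) called 1079 genes higher and 1638 lower in KO cells at an adjusted p under 0.05 (Benjamini-Hochberg), which was 19.2% of the tested genes in all, 7.64% higher and 11.6% lower. The share of calls that were higher was 39.7%, against 82.6% when libraries were scaled by their total reads and 51.5% after quantile normalization. Without KO replicate 2 or 3, the number called higher was 569 or 531. Recovered reads per library ranged from 7154043 to 10089981 and detected genes from 21316 to 22792. Protein-coding genes took 57.2 to 60.8% of reads in control and 70.7 to 70.9% in KO libraries, and with total reads as the scale the median log2 fold change over the table was 0.27 in place of 0.02. Control replicate 1 stood apart on the second principal component, which held 13.6% of the variance, while the first, with 57.5%, separated the genotypes. Dnmt1, the targeted gene, had 3025, 2539 and 2741 normalized counts in the control and 2411, 2243 and 2255 in the KO libraries, a difference of -0.26 on the log2 scale (SE 0.07, adjusted p = 0.0218). Its gene total includes reads outside the floxed part, so it checks the labels only loosely, and the call was lost without control replicate 1 (-0.20, adjusted p = 0.0574) or KO replicate 2 or 3 (adjusted p = 0.0848 and 0.0926), with total reads (-0.00, adjusted p = 0.972) and under quantile normalization (-0.15, adjusted p = 0.0901).

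Of the 10 members, 1 was called higher and 2 lower, and the median log2 fold change was -0.12, beside 0.02 for all tested genes. Over all tested genes 7.64% were called higher and 11.6% lower, so with 10 genes the number of calls says little about the members as a set. Normalized counts of control and KO libraries did not overlap for 7 of the 10, while 36.7% of all tested genes had groups that did not overlap. In 6 members the difference was negative and in 4 it was positive, but 4 of the negative ones, Eed, Suz12, Mtf2 and Jarid2, turned positive when libraries were scaled by total reads.

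**Figure D1:**
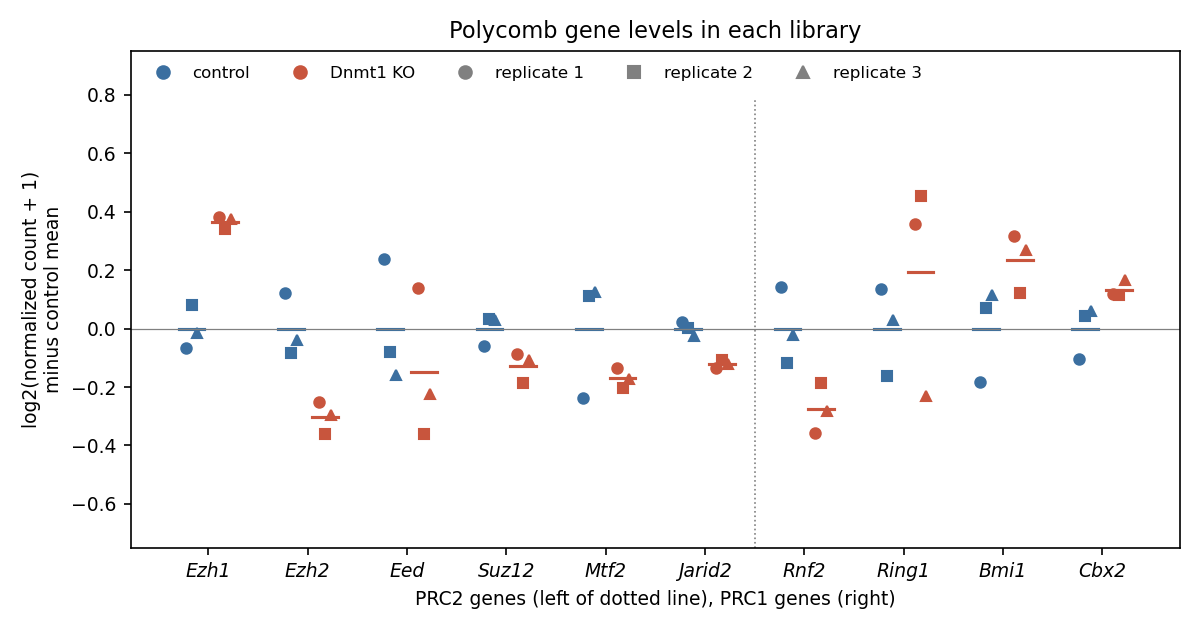
Levels of the 10 Polycomb genes in each library, as log2(normalized count + 1) minus the control mean of the gene (y axis), with PRC2 genes on the left and PRC1 genes on the right. Points are libraries (blue control, red KO, shape the replicate) and bars are group means. Ezh1 lies higher and Ezh2 and Rnf2 lower in all 3 KO libraries, although with total reads as the scale the differences of Ezh2 and Rnf2 are close to 0, while the groups of Eed, Mtf2 and Ring1 overlap.

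Ezh2 (ENSMUSG00000029687.17, GRCm39 chromosome 6, 47507073 to 47572331, minus strand) encodes the main methyltransferase of PRC2. It had 2561, 2220 and 2290 normalized counts in the control libraries and 1978, 1830 and 1918 in the KO libraries. Every KO library lay below every control library. The mean fell from 2357 ± 180 to 1908.5 ± 74.3 (SD, n = 3 each), or -0.30 on the log2 scale (SE 0.07, adjusted p = 0.00811). Leaving out any 1 library gave values from -0.34 to -0.24 with adjusted p from 0.00645 to 0.0443. The call was lost with total reads (-0.04, adjusted p = 0.650). Measured from the median of all genes the difference was -0.32 there as with the deposited scaling, because subtracting the median removes a change of scaling factors.

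Ezh1 (ENSMUSG00000006920.15, chromosome 11, 101081934 to 101117315, minus strand) encodes the alternative methyltransferase. Its normalized counts were 125, 138 and 129 in the control and 170, 165 and 170 in the KO libraries. The KO libraries lay close together and above all control libraries. The mean rose from 131 ± 6.83 to 168 ± 2.63 (SD, n = 3 each), or 0.37 on the log2 scale (SE 0.12, adjusted p = 0.0443). The value stayed positive in every alternative, from 0.33 to 0.62, but its call lies just inside the threshold. Without control replicate 1, 2 or 3 the adjusted p was 0.0963, 0.0543 and 0.1001, and without KO replicate 1, 2 or 3 it was 0.103, 0.0977 and 0.132. The call was also lost with no filter on low values (adjusted p = 0.0741), DESeq2 (0.139), limma-voom (0.0524) and scaling by protein-coding size factors (0.0678) or protein-coding reads (0.0574).

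In the ratio of the catalytic genes within a library the scaling factor of that library cancels, apart from the pseudocount of 1 in the log2 values. In the control libraries there were 0.0487, 0.0622 and 0.0564 Ezh1 counts for each Ezh2 count, and in the KO libraries 0.0862, 0.0904 and 0.0884. All KO ratios exceeded all control ratios, with a difference of 0.67 on the log2 scale, or 1.59-fold (exact two-sided permutation test, p = 0.1, or 0.2 adjusted over the 8 ratios computed). With 20 ways to assign 3 libraries against 3, 0.1 is the smallest p possible, so that no ratio could pass a threshold of 0.05 by this test. Leaving out any 1 library gave differences from 0.57 to 0.75. Per kilobase of the canonical transcript, the ratio was 0.0406 in control and 0.0644 in KO cells, so Ezh2 remained the more abundant catalytic gene in both genotypes.

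Eed, whose product reads the histone mark and activates the enzyme, had 248, 199 and 188 normalized counts in the control and 231, 164 and 180 in the KO libraries. The groups overlapped, with replicate 1 the highest in each genotype (log2 fold change -0.15, SE 0.15, adjusted p = 0.527), and total reads turned the value to 0.11. Leaving out 1 library moved it widely, to -0.03 without control replicate 1, -0.23 without control replicate 3, -0.29 without KO replicate 1 and -0.04 without KO replicate 2. Suz12, the scaffold of the complex, had 480, 513 and 511 against 472, 440 and 465 normalized counts. Its groups did not overlap but were separated by a small gap (log2 fold change -0.13, SE 0.08, adjusted p = 0.289; 0.13 with total reads). The 95% confidence interval of the Suz12 difference ran from -0.30 to 0.04.

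Jarid2, an accessory subunit that holds PRC2 on chromatin, varied little within a group, with 1173, 1158 and 1136 normalized counts in the control and 1052, 1072 and 1062 in the KO libraries. The groups did not overlap (log2 fold change -0.12, SE 0.06, adjusted p = 0.199; 0.14 with total reads), and the 95% confidence interval ran from -0.26 to 0.01. Mtf2, whose product binds unmethylated CpG-rich DNA, had 359, 459 and 463 normalized counts against 386, 369 and 376. Control replicate 1 lay below all KO libraries and the other control libraries above them. The log2 fold change of Mtf2 was -0.17 (SE 0.10, adjusted p = 0.284), turned to 0.09 with total reads, and was -0.11 without control replicate 3. Without control replicate 1 it was -0.29, with an adjusted p of 0.0368.

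Relative to Suz12 within each library, the accessory genes and Eed showed little difference between genotypes. The log2 ratio to Suz12 differed by -0.02 for Eed, -0.04 for Mtf2 and 0.01 for Jarid2 (exact two-sided permutation test, p = 0.8, 0.7 and 0.8), with overlapping groups. The sign of each of these changed when single libraries were left out, with ranges from -0.14 to 0.13 for Eed, -0.13 to 0.01 for Mtf2 and -0.03 to 0.05 for Jarid2. The Ezh2 to Suz12 ratio was 5.33, 4.33 and 4.48 in the control and 4.19, 4.16 and 4.13 in the KO libraries. These groups did not overlap (log2 difference -0.18, exact permutation p = 0.1), and without control replicate 1, the highest, the difference was -0.08.

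**Figure D2:**
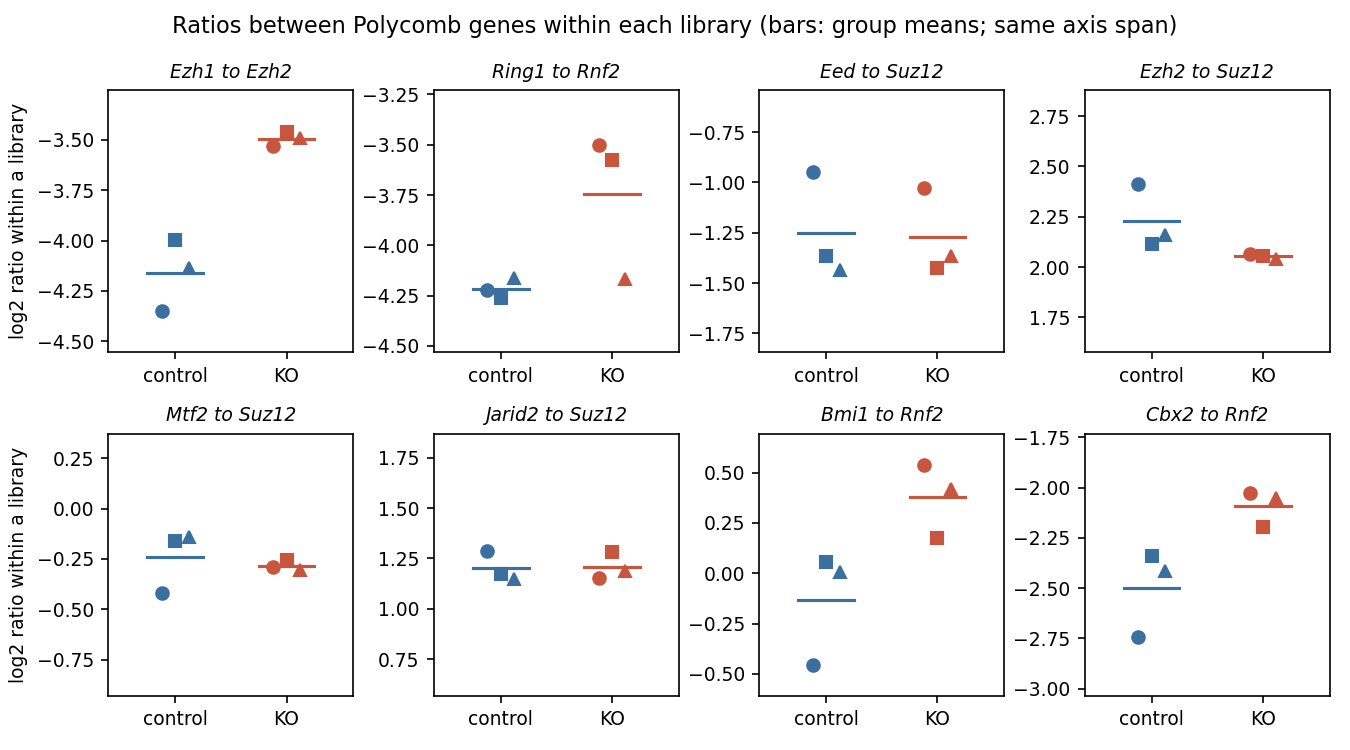
Log2 ratios of normalized counts between members within each library (y axis, every panel spanning the same range) for control (blue) and KO (red) libraries, with shapes for the replicate and bars for group means. The groups do not overlap for Ezh1 to Ezh2, Ezh2 to Suz12, Bmi1 to Rnf2 and Cbx2 to Rnf2, 4 of the 8 ratios. Each of these holds Ezh2 or Rnf2, both called lower, so they are not independent, and the share for ratios of other genes was not computed.

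Rnf2 (ENSMUSG00000026484.14, chromosome 1, 151333755 to 151376729, minus strand) encodes the main ubiquitin ligase of PRC1. It had 824, 689 and 735 normalized counts in the control and 583, 656 and 614 in the KO libraries. Every KO library lay below every control library. The mean fell from 749 ± 68.5 to 618 ± 36.4 (SD, n = 3 each), a difference of -0.27 on the log2 scale (SE 0.08, adjusted p = 0.0374). The call was lost without control replicate 1 (-0.20, adjusted p = 0.113), control replicate 3 (0.0709), KO replicate 1 (0.118) or KO replicate 3 (0.113), and with total reads (-0.02, adjusted p = 0.894).

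Ring1, the paralog of Rnf2, was the lowest member, with 43.2, 35.0 and 40.1 normalized counts in the control and 50.6, 54.2 and 33.3 in the KO libraries. KO replicate 3 lay below all control libraries and the other KO libraries above them (log2 fold change 0.19, SE 0.24, adjusted p = 0.629). These values rest on 35 to 56 reads per library, and the 95% confidence interval of the Ring1 difference, from -0.33 to 0.72, includes changes larger than those of Ezh1, Ezh2 and Rnf2. The Ring1 value was 0.11 without control replicate 2 or KO replicate 1, 0.06 without KO replicate 2, 0.41 without KO replicate 3, 0.45 with total reads and 0.36 after quantile normalization, in no case called. The Ring1 to Rnf2 ratio differed by 0.47 on the log2 scale with overlapping groups (exact permutation p = 0.2).

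Bmi1 encodes a PCGF partner of canonical PRC1 and is known for maintaining neural stem cells. It had 600, 715 and 738 normalized counts in the control and 849, 742 and 821 in the KO libraries. The groups did not overlap, but KO replicate 2 lay just above control replicate 3. The log2 fold change was 0.24 (SE 0.09, adjusted p = 0.0896), which did not pass, and Bmi1 was called higher only with total reads (0.49, adjusted p = 0.000758). Cbx2 had 122, 135 and 137 against 143, 142 and 147 normalized counts, a narrow separation (log2 fold change 0.13, SE 0.12, adjusted p = 0.493; called with total reads at 0.39, adjusted p = 0.0209). Without control replicate 1 the values were 0.14 for Bmi1 and 0.08 for Cbx2.

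Relative to Rnf2 within a library, itself called lower, both genes were higher in all KO libraries, although neither was called by itself. There were 0.729, 1.04 and 1.00 Bmi1 counts for each Rnf2 count in the control and 1.45, 1.13 and 1.34 in the KO libraries, a 1.42-fold difference (0.51 on the log2 scale, exact two-sided permutation p = 0.1). The Cbx2 to Rnf2 ratio was 0.148, 0.196 and 0.186 in the control and 0.244, 0.217 and 0.240 in the KO libraries, 1.33-fold higher (exact permutation p = 0.1). Control replicate 1 had the lowest value of both ratios, and without it the log2 differences were 0.35 and 0.29.

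Levels of different genes can be compared only per length, here as normalized counts per kilobase of the canonical transcript. In control cells Ezh2 was highest at 763 ± 58.2 (SD, n = 3), above Rnf2 at 236 ± 21.6, Jarid2 at 185 ± 2.98 and Bmi1 at 181 ± 19.6. Next came Mtf2 at 105 (88.5 to 114 over the libraries), Suz12 at 103 ± 3.75 and Eed at 101 ± 15.3. Jarid2 and Bmi1 could not be ordered because the libraries overlapped, and the same holds for Mtf2, Suz12 and Eed. Cbx2 at 34.5 ± 2.12 and Ezh1 at 30.8 ± 1.61 overlapped as well, although Cbx2 lay above Ezh1 within each control library. Ring1 was lowest at 19.4 ± 2.04. In KO cells Bmi1, at 212 ± 14.6 per kilobase, took the place after Ezh2 (618 ± 24.1), ahead of Rnf2 (195 ± 11.5), although their libraries overlapped. Ezh1, at 39.7 ± 0.62 per kilobase, stood above Cbx2, at 37.8 ± 0.749, in every KO library. A gene that is mostly read as another isoform than the canonical one would have a different level on this scale.

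Scaling by total reads shifted every member upwards together with the median of all genes. A change of scaling factors adds nearly the same amount to the log2 fold change of every gene. Subtracting the median removes that amount by arithmetic, so likeness between scalings on this measure says nothing on which scaling is right. Measured from the median of all genes, Ezh1 lay between 0.30 and 0.39 above it over all alternatives, Ezh2 between -0.36 and -0.26 and Rnf2 between -0.35 and -0.22. Bmi1 lay 0.13 to 0.28 above the median, and Suz12 -0.21 to -0.11 from it.

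**Figure D3:**
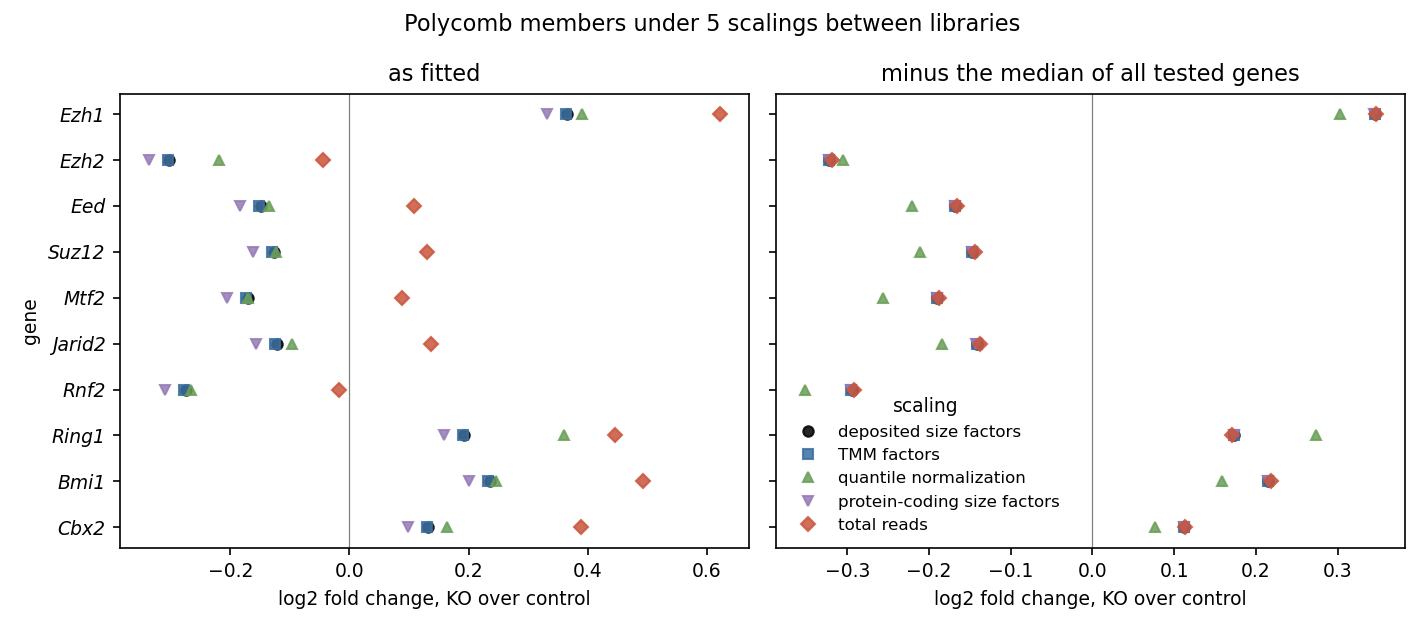
Log2 fold changes, KO over control (x axis), of the 10 members under 5 ways of scaling libraries, as fitted (left) and after subtracting the median of all tested genes under the same scaling (right). With total reads Eed, Suz12, Mtf2 and Jarid2 lie above 0 as fitted. Relative to the median every member keeps the sign it has with the deposited size factors. The subtraction largely fixes this in advance for every scaling but quantile normalization.

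Several members overlap a gene on the other strand. Ezh1 overlaps Cntnap1, which had 2.88 ± 0.438 normalized counts in control and 2.19 ± 1.70 in KO cells. Ezh2 overlaps Cul1 (504 ± 25.4 and 550 ± 28.3, log2 fold change 0.13, adjusted p = 0.305) and Rnf2 overlaps Trmt1l (134 ± 8.96 and 130 ± 12.9, log2 fold change -0.04, adjusted p = 0.877). Neither passed the test. The library kit keeps the strand, but whether counting was by strand was not stated in the labels or methods.

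A wider list held 49 further genes of the Polycomb system, of which 47 were tested (Ezhip and Phf19 were too low). In KO cells 4 were called higher and 5 lower, 19.1% of those tested beside 19.2% of all genes, and the median log2 fold change was -0.02. The share called was therefore close to that of the whole table, and the results below describe single genes.

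**Figure D4:**
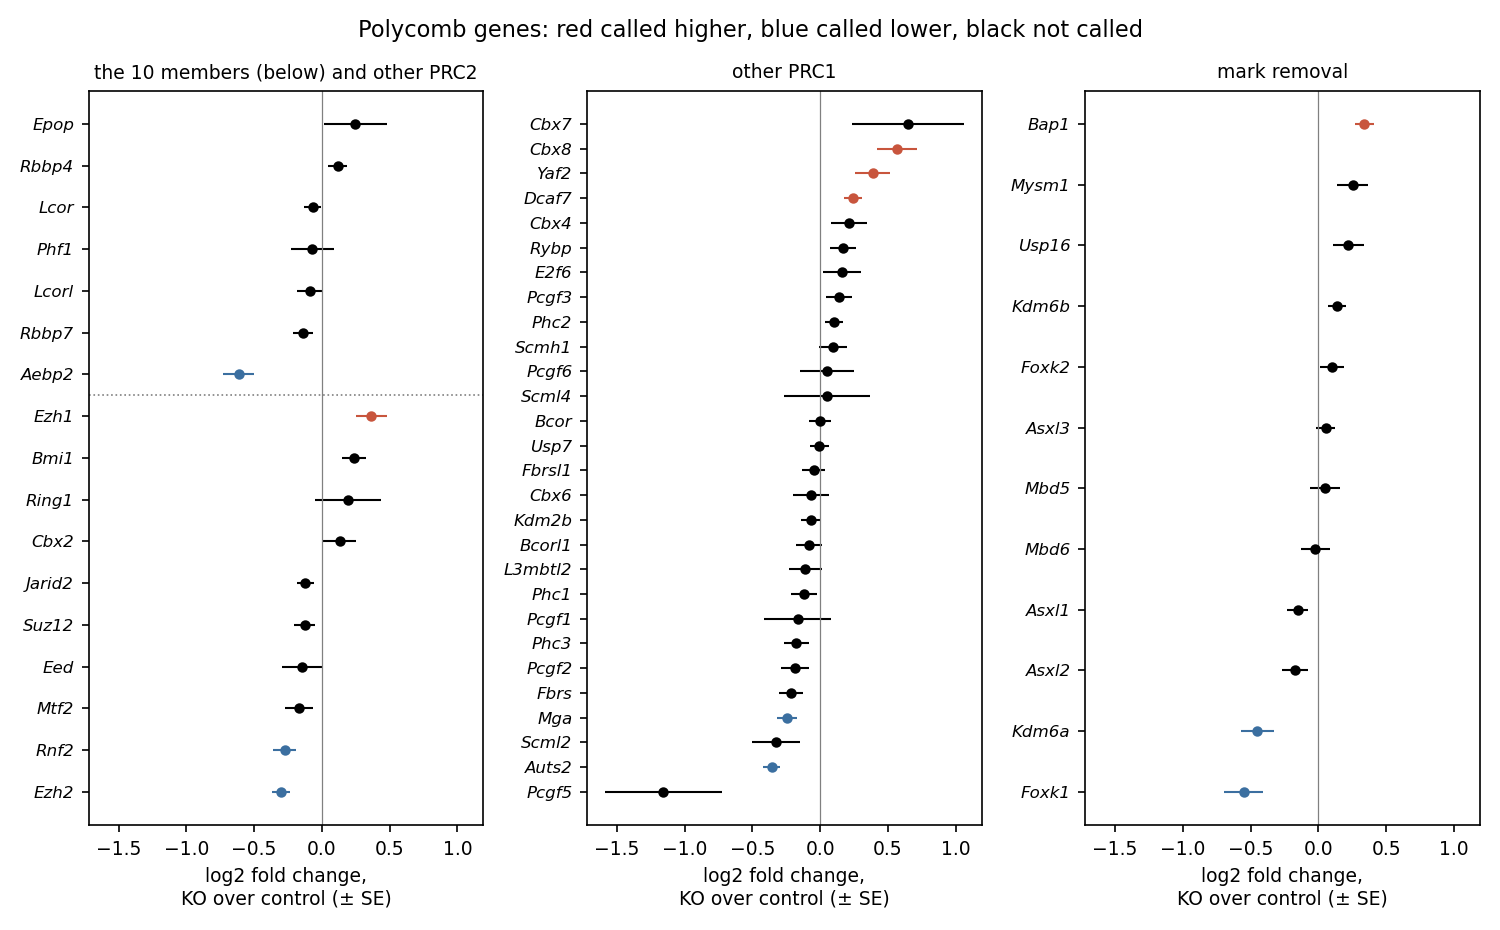
Log2 fold changes, KO over control, with the SE of the fit (x axis) for the 10 members and the 47 other tested Polycomb genes, in panels for the members with the other PRC2 genes, the other PRC1 genes and genes that remove the marks or act with those that do. Red marks a call higher (Ezh1, Cbx8, Yaf2, Dcaf7 and Bap1), blue a call lower (Ezh2, Rnf2, Aebp2, Auts2, Mga, Kdm6a and Foxk1) and black no call. With total reads as the scale only Aebp2 of the blue genes keeps its call, and Mga turns to 0.02.

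Of the 7 other PRC2 genes tested, Aebp2 fell and 6 were not called. Aebp2 encodes a DNA-binding accessory subunit that joins PRC2 together with JARID2. It had 327, 314 and 354 normalized counts in the control and 185, 230 and 238 in the KO libraries, well apart (log2 fold change -0.61, SE 0.11, adjusted p = 0.00206). Its call held in every alternative, with a value of -0.36 with total reads. Rbbp4, a histone chaperone and the most abundant gene of the list, went from 1002 ± 68.3 to 1086 ± 21.1 normalized counts with overlapping groups (adjusted p = 0.273).

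Of 28 other PRC1 genes, 3 rose and 2 fell. Cbx8, a chromobox paralog of Cbx2, had 79.0, 71.0 and 81.3 normalized counts in the control and 125, 114 and 105 in the KO libraries, with no overlap (log2 fold change 0.57, SE 0.15, adjusted p = 0.0186). This call was lost without control replicate 2 (0.0538), KO replicate 1 (0.0721) or KO replicate 2 (0.0592). Yaf2, which takes the place of chromobox proteins in variant PRC1, was called higher at 0.39 (SE 0.13, adjusted p = 0.0478), from 131 ± 9.69 to 172 ± 15.7 normalized counts (0.64 with total reads). Leaving out control replicate 2 (0.0870) or 3 (0.138) or KO replicate 1 (0.0699), 2 (0.184) or 3 (0.0955) ended its call, as did DESeq2 (0.115), limma-voom (0.0552), no filter on low values (0.0648) and scaling by protein-coding size factors (0.0681) or protein-coding reads (0.0548).

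Dcaf7, a WD40 protein of PCGF3 and PCGF5 complexes, had 1051, 1152 and 1085 normalized counts in the control and 1252, 1326 and 1318 in the KO libraries (log2 fold change 0.25, SE 0.07, adjusted p = 0.0208). Without control replicate 3, KO replicate 2 or KO replicate 3 the adjusted p was 0.0625, 0.0781 and 0.0909, and with total reads the value was 0.50. Auts2, a neuronal PRC1 subunit tied to gene activation, was the most abundant gene of the list, with 3684, 3352 and 3626 against 2873, 2800 and 2642 normalized counts (log2 fold change -0.36, SE 0.06, adjusted p = 0.00146). The groups were far apart, and the Auts2 call was lost only with total reads (-0.10, adjusted p = 0.229).

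Mga, the DNA-binding partner of PCGF6 complexes, went from 1567.5 ± 70.2 to 1327 ± 118 normalized counts (log2 fold change -0.24, SE 0.08, adjusted p = 0.0391), and total reads turned it to 0.02 (adjusted p = 0.889). Quantile normalization (0.109) also ended the call, as did leaving out control replicate 1 (0.0965), 2 (0.0530) or 3 (0.0623) or KO replicate 2 (0.170) or 3 (0.0926).

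Of 12 genes whose products remove Polycomb marks or act with those that do, 1 rose and 2 fell. Bap1, the H2A deubiquitinase, had 545, 594 and 567 normalized counts in the control and 708, 727 and 721 in the KO libraries, with no overlap (log2 fold change 0.34, SE 0.07, adjusted p = 0.00526), and its call held in every alternative, with a value of 0.60 with total reads. Foxk1, a transcription factor that binds BAP1 complexes, had 133, 145 and 150 against 112, 92.9 and 88.1 (log2 fold change -0.55, SE 0.14, adjusted p = 0.0160). Without control replicate 3 or KO replicate 2 or 3 the adjusted p of Foxk1 was 0.0553, 0.0581 and 0.0750, and with total reads 0.105 (log2 fold change -0.30). Kdm6b, an H3 lysine 27 demethylase and the most abundant gene of the list, went from 1361 ± 46.0 to 1498 ± 74.8 and was not called (adjusted p = 0.171).

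Kdm6a, an X-linked H3 lysine 27 demethylase that escapes X inactivation, had 270, 266 and 317 normalized counts in the control and 231, 178 and 215 in the KO libraries, with no overlap (log2 fold change -0.45, SE 0.12, adjusted p = 0.0198). The call was lost without control replicate 3 (0.0797) or KO replicate 2 (0.0891) and with total reads (-0.19, adjusted p = 0.199). Transcripts that mark embryo sex differed between the same libraries. Xist, transcribed from the inactive X chromosome, had 2805 ± 180 normalized counts in control and 1966 ± 10.7 in KO cells, and Uty, the Y-linked homolog of Kdm6a, had 57.0 ± 11.9 and 88.3 ± 15.9. Their part in the Kdm6a result was not tested.

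Most classical Polycomb targets were near the detection limit in both genotypes. Of 39 Hox genes, which Polycomb complexes keep silent in the forebrain, 22 had no read in any library, and the list summed to 6.62 to 10.0 normalized counts in control and 5.18 to 16.5 in KO libraries. None reached the minimum mean of 10 for the test. The highest were Hoxd8, with 1.23, 0 and 2.23 normalized counts in the control and 8.26, 0 and 0 in the KO libraries, followed by Hoxd3 and Hoxd4 with no KO read. Hoxb9, named after its values were seen, lay the other way, with no read in the control and 1, 3 and 1 reads in the KO libraries. With no filter on low values limma called no Hox gene, and those with an unadjusted p under 0.05 were Hoxd3, Hoxd4 and Hoxb9 (adjusted p = 0.109, 0.145 and 0.133). At a count of 0, as many as 3 reads cannot be told from none, which amounts to 2.22 to 3.70 normalized counts per library by counting error alone, so a rise below that level was not detectable.

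Of 18 other targets, transcription factors of other lineages and the cell cycle inhibitor genes Cdkn2a and Cdkn2b, 8 had no read in any library, among them Cdkn2a. The list summed to 36.9 to 49.4 normalized counts in control and 9.62 to 19.4 in KO libraries. Sox17, an endoderm and endothelial regulator and the only one tested, was not called (11.9 ± 0.671 and 8.44 ± 3.66, adjusted p = 0.450 by limma, and 0.257 before adjustment). Pax3, a regulator of dorsal neural tube and neural crest, had 14.8, 9.46 and 12.3 normalized counts in the control libraries, 33 reads in all, and no read in the 3 KO libraries, at least 4.44-fold lower against a floor of 3 reads per library. Pax7, its paralog, named after its values were seen, had 13.6, 0.946 and 5.57 against no KO read, so that control replicate 1 held most of its signal and no fold is given. With no filter on low values both were called lower (adjusted p = 0.000108 and 0.0132). Foxa1, an endoderm and floor plate factor, had overlapping groups (6.99 ± 2.96 and 4.41 ± 4.57).

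Markers of other cells differed between the same libraries, in which 7.64% of all tested genes were called higher and 11.6% lower. Of 20 cell cycle genes 14 fell, 6 were not called, and their summed level was 6685 to 7071 normalized counts in control and 4804 to 4929 in KO libraries (median log2 fold change -0.53). Mki67, the most abundant of them, went from 1562 ± 104 to 1083 ± 40.4. Of 14 radial glia genes 9 fell and 1 rose, with sums of 10351 to 10914 and 7196 to 7464 (Vim the most abundant). The gene that rose was Sox2, from 629 ± 57.3 to 788 ± 67.1 (log2 fold change 0.33, adjusted p = 0.0227 by limma). Of 15 interneuron genes 12 rose and 3 were not called, with sums of 30087 to 32461 and 38462 to 39661 (Lhx6 the most abundant), and Sst itself, the defining marker, was present at 2978 ± 112 and 3284 ± 153 (adjusted p = 0.134). In bulk samples fewer cells of a type and less RNA per cell cannot be told apart, and the part of these lists in the Ezh1, Ezh2 and Rnf2 results was not tested.

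Among other lists, 5 of 7 tested striatal projection neuron genes fell (sums 2507 to 2661 and 1073 to 1142, Meis2 the most abundant), as did 3 of 10 excitatory lineage genes, with 1 rising (Neurod6 the most abundant). In the vascular, immune and erythroid list 1 of 12 tested genes fell (Hba-a2 the most abundant), and in the mesenchymal list 2 of 6 (Col3a1 the most abundant). Of 13 genes of the mitochondrial genome, a sign of RNA and cell quality, 4 rose (sums 43982 to 51297 and 54112 to 56169, mt-Co1 the most abundant). Beside these counts stand the shares over all tested genes, 7.64% called higher and 11.6% lower. No gene of these marker lists was at 0 in all 6 libraries.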

How the data were processed

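The authors sorted cells, prepared stranded total RNA libraries and, per the labels and the processing notes, used Trim Galore 0.6.10, STAR 2.7.11b, Salmon 1.10.3 and DESeq2 1.42.1 in R 4.3.3 with GRCm39 (the methods of the study name other versions). The deposited values are gene-level counts divided by the DESeq2 size factor of each library, a normalized signal and not raw counts. Every value was a whole multiple of the library's step (100% within 0.001), so whole reads were recovered for the count tests. The authors' tables of fold changes, p-values and enriched terms were not used. Libraries were grouped by title: the genotype field is the same for all 6.

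Genes with a mean of at least 10 were tested with limma 3.58.1 (lmFit, eBayes with trend) on log2(normalized count + 1), genotype only, with Benjamini-Hochberg adjustment over 14126 genes. Fold changes on this scale understate those of low genes. Ratios were tested by exact permutation. On recovered reads, edgeR 4.0.16 (quasi-likelihood) called 1064 genes higher and 1668 lower, and DESeq2 1.42.0 called 841 and 1501. There were 20 alternatives per gene (19 for Ring1), of which 2, both based on protein-coding genes, were chosen after seeing the data. Replicates of a genotype differed by more than sampling noise (chi-square per gene 3.45 to 12.8). Positions are from GENCODE on GRCm39 and figures were drawn with matplotlib 3.10.9.

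The members and gene lists were chosen with earlier results of these data known. Named genes were the 10 members, Dnmt1, up to 6 called genes per direction and the most abundant gene of each further Polycomb list, the 3 highest of each target list and the most abundant gene of each marker list. Sst, Sox2, Xist, Uty, Pax7 and overlapping genes were added.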

Additional observations from a re-analysis of the deposited data

How the results depend on the processing

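Directions of Ezh1, Ezh2, Rnf2, Ring1, Bmi1 and Cbx2 held in all alternatives run. Scaling by total reads gave 5046 genes higher and 1062 lower, 3 members higher (Ezh1, Bmi1 and Cbx2) and 0 lower, and 20 other Polycomb genes higher and 1 lower, and reversed Eed (0.11), Suz12 (0.13), Jarid2 (0.14), Mtf2 (0.088) and Mga (0.015). No member was called higher (0) with no filter on low values, DESeq2, limma-voom, protein-coding size factors or protein-coding reads, where Ezh1 was the call lost, and with no filter 2 target genes were called lower. Leaving out 1 library gave 531 to 977 genes higher, 1235 to 1527 lower, 0 members higher and 1 to 2 lower, and 1 to 4 other Polycomb genes higher and 2 to 5 lower. The log2 ratio to Suz12 reversed for Eed (without control replicate 1, 0.13, KO replicate 2, 0.05, and KO replicate 3, 0.03), for Mtf2 (without control replicate 3, 0.0058) and for Jarid2 (without control replicate 2, -0.0095, control replicate 3, -0.02, and KO replicate 2, -0.031), within ranges of -0.14 to 0.13, -0.13 to 0.0058 and -0.031 to 0.047. The cause of these shifts was not tested.

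Deviations of same-numbered libraries correlated at -0.02, 0.06 and -0.03, and only the libraries numbered 2 correlated best with their own number. These values gave no sign of pairing by replicate number. With 3 libraries of each genotype they cannot exclude it. With the replicate block 945 genes were called higher and 1583 lower, 0 members higher and 1 lower (Ezh2). Ezh1 had an adjusted p of 0.0695 and Rnf2 of 0.0637 in that fit, and Yaf2 of 0.0663. Depth limited Ring1, at 35 to 56 reads per library, and the target genes. With 3 libraries against 3, the exact permutation test of a ratio cannot give a p below 0.1.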
